A study of Mus musculus with 6 samples.

Results

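The genes described here encode the proteins of the mitochondrial ribosome. They were taken as protein-coding genes whose symbol begins with Mrpl or Mrps followed by a digit, and were kept where all libraries together held 10 counts or more. Of 78 such genes in the annotation, 77 passed this limit, out of 16954 genes tested and 55573 genes counted. RNA was sequenced from 6 osteoclast cultures, 3 Rosa-Hes1 and 3 control. Bone marrow macrophages of male mice, which the study describes as 10 weeks old, received M-CSF (30 ng/ml), which keeps macrophages alive and dividing, and RANKL (10 ng/ml) over 4 days, which drives them to fuse into osteoclasts. Rosa-Hes1 cultures came from Ctsk Cre/WT;Rosa Hes1 mice, in which Cre recombinase, expressed from the cathepsin K gene, removes a STOP cassette in the Rosa26 locus so that HES1, a transcriptional modulator downstream of Notch, is made together with GFP. The sample labels call the control cultures wild type, whereas the study describes them as littermates that carry the same Rosa [STOP]Hes1 allele without Cre. Both groups therefore shared the Rosa26 insertion and its ICR strain origin, while the Cre allele, of C57BL/6 origin, was present in Rosa-Hes1 cultures alone. Cathepsin K is also expressed outside osteoclasts, and the libraries are of whole cultures, in which a change in the number of cells of a type and a change in RNA per cell cannot be told apart.

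Mitochondria carry their own ribosome, which translates the few proteins encoded by mitochondrial DNA, all of them core parts of the respiratory chain and the ATP synthase. Its large and small subunits hold counterparts of bacterial ribosomal proteins and further proteins found only in mitochondrial ribosomes, and every protein of it is encoded in the nucleus, made in the cytosol and imported. Osteoclasts are rich in mitochondria, and resorption of bone is known to need much ATP.

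Hes1 checked the labels. It had 4.95, 4.83 and 6.91 CPM (read count scaled to library size, with TMM normalization) in Rosa-Hes1 libraries, against 0.517, 0.557 and 0.296 CPM in control libraries, an 11.8-fold difference (adjusted p = 0.00477, edgeR quasi-likelihood test, Benjamini-Hochberg over all tested genes). Between 13038362 and 15956331 read pairs were assigned to genes per library. Of the 9 osteoclast markers, 8 were higher in Rosa-Hes1 cultures, beside 5.85% of all tested genes. Among them was Acp5 with 2993, 2548 and 3066 CPM in Rosa-Hes1 libraries, against 1472, 1889 and 1804 CPM in control libraries. The exception was Ctsk, the cathepsin K gene, from which Cre is expressed in Rosa-Hes1 cultures. It had 3504, 2937 and 3545 CPM in Rosa-Hes1 libraries, against 2730, 3483 and 3224 CPM in control libraries (log2 fold change 0.08, adjusted p = 0.709, edgeR). Of the 8 macrophage markers, 1 was higher and 1 lower, while no erythroid marker reached 10 counts. Of the 5 markers of T and NK cells, Lck had at most 0.594 CPM in any library, and Cd3d, Cd3e, Cd8a and Ncr1 stayed below 10 counts in all. Neutrophil markers summed to 96.6, 169 and 118 CPM in Rosa-Hes1 libraries, against 248, 163 and 110 CPM in control libraries, and the 5 stromal markers that reached 10 counts to 266, 372 and 112 CPM in Rosa-Hes1 libraries, against 480, 177 and 178 CPM in control libraries, with overlap in both. On the first principal component Rosa-Hes1 replicate 2 stood nearest to the control libraries.

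All 77 genes were counted in every library. Their counts summed over the 6 libraries ran between 602 for Mrps34 and 10487, with a median of 4410, and their mean levels between 6.85 and 120.0 CPM. The coefficient of variation between replicates had a median of 5.65% in Rosa-Hes1 libraries and 5.71% in control libraries. To set genes side by side, CPM were divided by the kilobases of the principal transcript that no other gene covers. On this scale the highest member was Mrpl52, with 188 ± 11.8 CPM per kilobase in Rosa-Hes1 libraries and 175 ± 14.3 in control libraries (SD, n = 3 each). Mrpl42 and Mrpl20 followed, with 150 ± 8.47 and 132 ± 7.13 CPM per kilobase in Rosa-Hes1 libraries, against 156 ± 8.40 and 132 ± 3.17 in control libraries. These 3 are large subunit proteins, and the next in order, Mrps21 and Mrps6 of the small subunit, averaged 88.1 and 85.4 CPM per kilobase over all libraries. The lowest were Mrpl48 at 9.47 CPM per kilobase, Mrpl17 at 9.87, Mrpl58 at 10.9, Mrpl57 at 11.4 and Mrps10 at 12.9, against a median of 35.8. Mrpl48 and Mrpl17 are annotated with transcripts of 4285 and 7300 bases, so that their low place rests on the annotated length, whereas Mrpl52 has 418 bases. Of neighbours in this order, Mrpl58 and Mrpl57 did not differ beyond the spread of their libraries in either group. Mrps21 and Mrps6, like Mrpl48 and Mrpl17, changed order between the groups. Mrpl20 and Mrps21 lay further apart than their spread in both groups, and Mrpl52 and Mrpl42 in Rosa-Hes1 libraries alone.

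**Figure D1:**
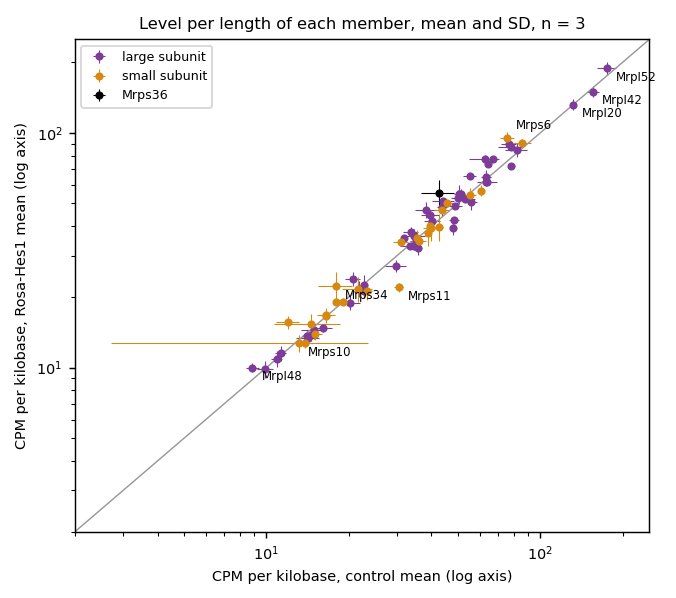
Level per length of each of the 77 genes, in CPM per kilobase on log axes, with Rosa-Hes1 libraries on the vertical axis and control libraries on the horizontal axis (mean and SD, n = 3 each, coloured by subunit). Most genes lie on the diagonal of equal levels, Mrps11 lies below it, Mrps6 above it, and the wide bar of Mrps10 shows its spread among control libraries.

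As a whole, the mitochondrial ribosomal protein mRNAs did not differ between the groups beyond the spread of the libraries. Their summed level was 4050, 4087 and 3844 CPM in Rosa-Hes1 libraries, against 3821, 4094 and 3798 CPM in control libraries, and the groups overlapped. The means were 3993 ± 131 CPM in Rosa-Hes1 libraries and 3905 ± 165 CPM in control libraries (SD, n = 3 each). The large subunit genes summed to 2839 ± 93.1 CPM in Rosa-Hes1 libraries and 2772 ± 127 CPM in control libraries, and the small subunit genes to 1116 ± 43.2 CPM in Rosa-Hes1 libraries and 1103 ± 36.2 CPM in control libraries. The ratio of the large to the small subunit sum ran between 2.51 and 2.57 in Rosa-Hes1 libraries and between 2.46 and 2.55 in control libraries.

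Libraries differed more from their own replicates than the groups differed from each other. The median deviation of the 77 genes from their mean over all libraries, on the log2 scale, was 0.02, 0.05 and -0.05 in Rosa-Hes1 libraries, against -0.02, 0.06 and -0.05 in control libraries. Of the 77 genes, 21 had their highest CPM in Rosa-Hes1 replicate 2 and 26 in control replicate 2, while 31 had their lowest in Rosa-Hes1 replicate 3 and 22 in control replicate 1.

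Gene by gene, the differences were small in both directions. The log2 fold change, Rosa-Hes1 over control, had a median of -0.00 over the 77 genes, beside -0.01 over all tested genes, with 37 genes above 0 and 40 below it. The middle 50% of the genes lay between -0.06 and 0.13, and the whole range was -0.47 to 0.38. Over all tested genes the middle 50% lay between -0.21 and 0.25. The 95% interval of the fold change, not adjusted for the number of genes, lay within 1.5-fold in either direction for 73 of the 77 genes and within 1.25-fold for 50. Over all tested genes this held for 7636 and 3409 of 16954, and over the 7231 tested protein-coding genes in the same range of CPM for 5327 and 2371. The 4 genes whose intervals reached past 1.5-fold were Mrps11, Mrps34, Mrps36 and Mrps10. That of Mrps11 was not a wide one (-0.66 to -0.27) but lay far from 0.

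**Figure D2:**
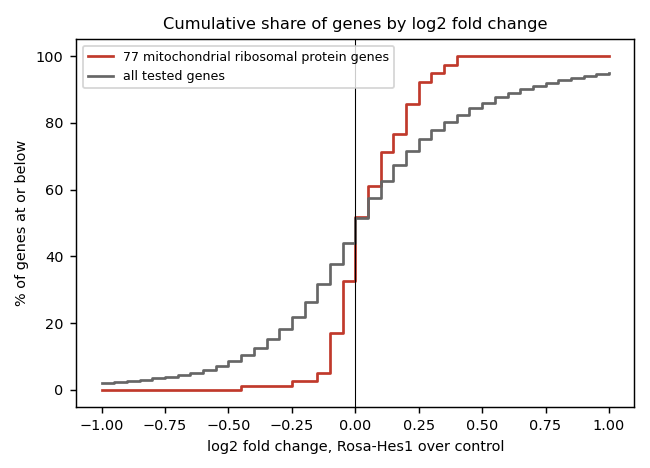
Cumulative share of genes, in percent, by log2 fold change of Rosa-Hes1 over control (in steps of 0.05), for the 77 mitochondrial ribosomal protein genes and for all 16954 tested genes. Both curves reach about the same share at 0, and the curve of the mitochondrial ribosomal protein genes is the steeper one, with a whole range of -0.47 to 0.38.

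By the test over all genes, 4 of the 77 genes passed the threshold of an adjusted p under 0.05. Mrps35 and Mrps6 rose and Mrps11 and Mrpl40 fell in Rosa-Hes1 cultures. That is 5.19% of the genes, beside 8.25% of all tested genes (991 higher or 5.85%, and 408 lower or 2.41%) and 11.4% of the protein-coding genes in the same range of CPM. The 3 Rosa-Hes1 and the 3 control values did not overlap for 23 of the 77 genes (16 higher and 7 lower), or 29.9%. The share was 31.2% of all tested genes (2820 higher and 2463 lower) and 39.5% of the protein-coding genes in the same range of CPM. Both shares are near or below those of other genes.

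**Figure D3:**
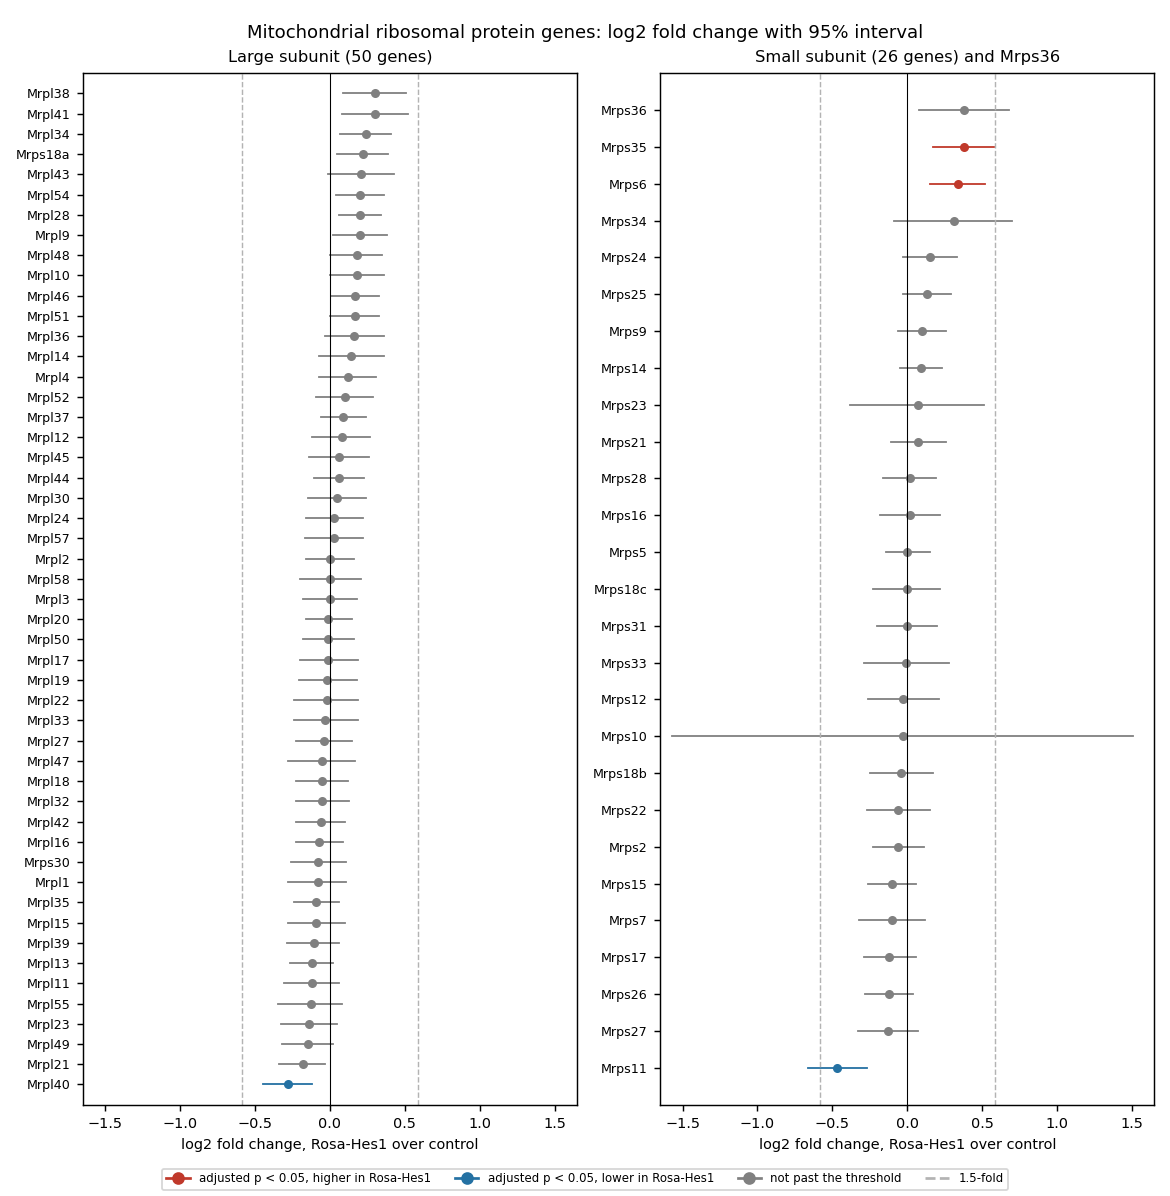
Log2 fold change, Rosa-Hes1 over control, of each of the 77 genes with its 95% interval, large subunit at left, small subunit and Mrps36 at right, in order of the fold change. Mrps35 and Mrps6 (red) and Mrps11 and Mrpl40 (blue) passed the threshold, and the dashed lines mark a 1.5-fold difference in either direction.

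Mrps35, a small subunit protein with no bacterial counterpart, had the largest rise among these 4 genes. It lies on chromosome 6 (147042764 to 147073991, GRCm38). Its level was 69.5, 61.3 and 64.0 CPM in Rosa-Hes1 libraries, against 45.5, 55.2 and 49.2 CPM in control libraries. The groups did not overlap, and the lowest Rosa-Hes1 library stood 1.11-fold above the highest control library. The log2 fold change was 0.38 ± 0.09 (SE, adjusted p = 0.0394, edgeR). The call was lost without control replicate 1 or 3 or Rosa-Hes1 replicate 1 or 3, with log2 fold changes of 0.31 to 0.38 and adjusted p of 0.0915 to 0.142, and kept without the others.

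Mrps6, the counterpart of bacterial ribosomal protein S6 in the small subunit, was the other member that rose. It lies on chromosome 16 (92058270 to 92112227). The 3 Rosa-Hes1 libraries had 55.1, 50.3 and 49.3 CPM, against 38.4, 43.2 and 41.0 CPM in control libraries, with no overlap. The log2 fold change was 0.34 ± 0.08 (SE, adjusted p = 0.0389, edgeR). It passed the threshold without Rosa-Hes1 replicate 2 and not without any other single library, where it was 0.29 to 0.38 with adjusted p of 0.0651 to 0.142. Mrps6 starts beside Slc5a3, the sodium and myo-inositol cotransporter gene, and shares 159 exon bases with it on the same strand. It also shares 305 exon bases with the annotated gene Gm49711, on the same strand, which had at most 1 count in any library. Of the 846 bases of the Mrps6 transcript, 541 belong to no other gene. Slc5a3 had 160, 120 and 131 CPM in Rosa-Hes1 libraries, against 80.0, 95.4 and 101 CPM in control libraries, and rose as well (log2 fold change 0.57 ± 0.12 SE, adjusted p = 0.0302), a call lost without any single library except Rosa-Hes1 replicate 2 (0.44 to 0.64, adjusted p of 0.0590 to 0.0963). Reads in exons that more than 1 of these genes cover were counted for none of them.

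Mrps11, the counterpart of bacterial ribosomal protein S11 on the platform of the small subunit, had the largest fall of all members. It lies on chromosome 7 (78783119 to 78792989, plus strand). It had 19.4, 20.4 and 18.5 CPM in Rosa-Hes1 libraries, against 27.8, 25.8 and 27.0 CPM in control libraries, so that all 3 Rosa-Hes1 libraries were below all 3 control libraries. The log2 fold change was -0.47 ± 0.08 (SE, adjusted p = 0.0162, edgeR), with a 95% interval of -0.66 to -0.27. The size held with each library left out (-0.50 to -0.44), while the adjusted p exceeded the threshold without control replicate 1 or 3 or Rosa-Hes1 replicate 1 or 3 (0.0566 to 0.0737).

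The gene next to Mrps11 is itself a member. Mrpl46, of the large subunit, starts 30 bases away and runs in the opposite direction. It had 41.0, 39.0 and 41.2 CPM in Rosa-Hes1 libraries, against 36.2, 36.5 and 35.2 CPM in control libraries. These groups did not overlap either, with the Rosa-Hes1 libraries above the control libraries, but the log2 fold change of 0.17 ± 0.07 did not pass the threshold (SE, adjusted p = 0.181, edgeR). The ratio of Mrps11 to Mrpl46 counts within a library needs no scaling between libraries. It was 0.473, 0.523 and 0.450 in Rosa-Hes1 libraries, against 0.768, 0.707 and 0.767 in control libraries, and its means were 0.482 ± 0.0372 in Rosa-Hes1 libraries and 0.747 ± 0.0350 in control libraries (SD, n = 3 each). Mrpl46 and this ratio were chosen after the values were seen and are given as a description, with no test. Exons of the 2 genes share 173 bases on opposite strands, in which reads were counted for neither.

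**Figure D4:**
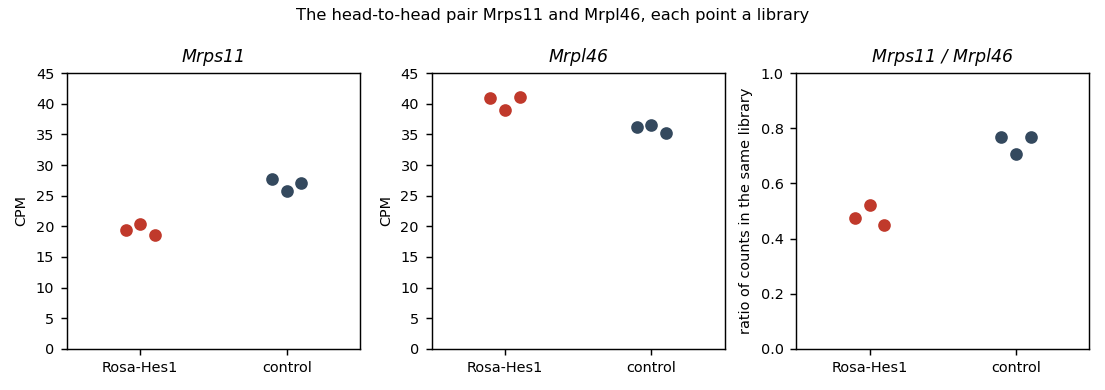
Levels of Mrps11 and of Mrpl46 in CPM, and the ratio of their counts in the same library, for 3 Rosa-Hes1 and 3 control libraries (each point a library). Mrps11 was lower and Mrpl46 higher in every Rosa-Hes1 library than in any control library, and the ratio was 0.450 to 0.523 in Rosa-Hes1 libraries, against 0.707 to 0.768 in control libraries.

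Mrpl40, a large subunit protein with no bacterial counterpart, was the other member that fell. It lies on chromosome 16 (18872018 to 18876862, minus strand). Its level was 48.0, 54.3 and 49.1 CPM in Rosa-Hes1 libraries, against 61.1, 62.3 and 60.9 CPM in control libraries, and the groups did not overlap. The log2 fold change was -0.28 ± 0.07 (SE, adjusted p = 0.0480, edgeR). It passed the threshold without Rosa-Hes1 replicate 2 and not without any other single library, where it was -0.29 to -0.25 with adjusted p of 0.108 to 0.163. The gene starts head to head with Hira, which encodes a histone chaperone. Hira had 10.0, 10.8 and 10.3 CPM in Rosa-Hes1 libraries, against 12.7, 9.47 and 10.5 CPM in control libraries, with a log2 fold change of -0.07 ± 0.13 (SE, adjusted p = 0.807).

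**Figure D5:**
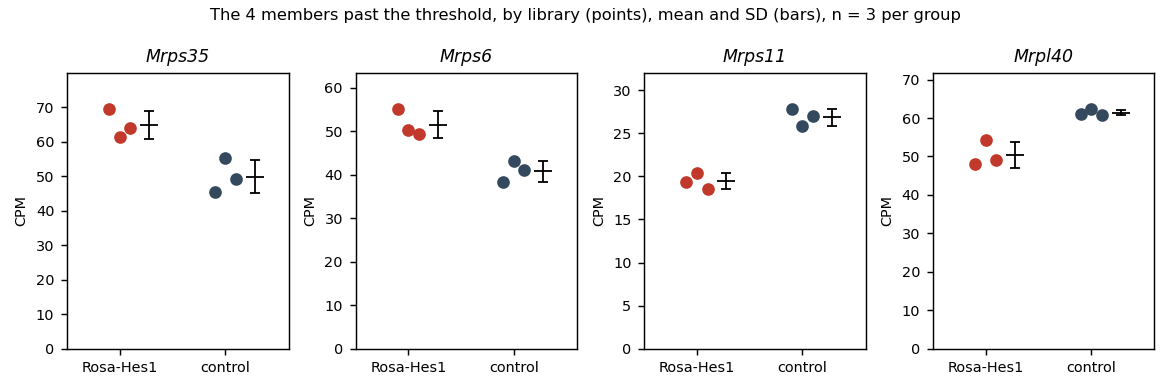
CPM of the 4 genes past the threshold in each library (points), with the mean and SD of each group (bars, n = 3). The 3 Rosa-Hes1 libraries lie above all control libraries for Mrps35 and Mrps6 and below them for Mrps11 and Mrpl40.

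The start regions of 3 of these 4 genes are shown because another gene starts beside each of them, with the values given above. Each runs 5′ to 3′ on the strand of the named gene, 250 bases before to 50 after its start in RefSeq (GRCm38.p6), and capitals mark GC boxes (GGGCGG) and cores of the YY1 motif (AAGATGGCG), on either strand. The Mrps11 window is chr7:78782881-78783180 (plus strand) and also holds the start of Mrpl46, the Mrps6 window is chr16:92058086-92058385 (plus strand) and also holds the start of Slc5a3, and the Mrpl40 window is chr16:18876588-18876887 (minus strand), in which the start of Hira is not included.
Mrps11: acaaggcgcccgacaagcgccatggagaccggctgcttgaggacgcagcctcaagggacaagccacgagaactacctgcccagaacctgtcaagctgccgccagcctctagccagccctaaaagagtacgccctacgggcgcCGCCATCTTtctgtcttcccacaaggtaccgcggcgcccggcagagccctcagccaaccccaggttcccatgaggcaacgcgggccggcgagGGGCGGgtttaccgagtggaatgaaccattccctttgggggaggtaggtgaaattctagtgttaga
Mrps6: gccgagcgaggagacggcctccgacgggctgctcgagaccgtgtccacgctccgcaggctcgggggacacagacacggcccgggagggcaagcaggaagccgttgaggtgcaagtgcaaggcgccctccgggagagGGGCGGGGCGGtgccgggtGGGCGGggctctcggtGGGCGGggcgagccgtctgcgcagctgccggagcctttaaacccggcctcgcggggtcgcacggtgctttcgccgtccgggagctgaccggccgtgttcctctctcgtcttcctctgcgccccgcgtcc
Mrpl40: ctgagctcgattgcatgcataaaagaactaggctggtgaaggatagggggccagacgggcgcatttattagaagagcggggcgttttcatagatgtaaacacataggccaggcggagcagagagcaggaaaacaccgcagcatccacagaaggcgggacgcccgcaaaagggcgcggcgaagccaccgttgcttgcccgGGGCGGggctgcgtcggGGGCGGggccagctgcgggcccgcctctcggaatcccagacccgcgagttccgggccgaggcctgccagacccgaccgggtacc
The Mrps11 window held 1 YY1 core, on the opposite strand, and 1 GC box. The Mrps6 window held 4 GC boxes, of which 2 overlap, and the Mrpl40 window 2. YY1, NRF1 and the ETS factor GABPA are known to bind at the promoters of many nuclear genes of mitochondrial proteins. Windows were at hand for 68 of the 77 genes (74 windows), and Mrpl4, Mrpl13, Mrpl15, Mrpl19, Mrpl38, Mrpl54, Mrps28, Mrps34 and Mrps35 were without one. Of the 74 windows, 33.8% held the ETS motif CCGGAAG, 10.8% the YY1 core and 9.46% the NRF1 core GCGCATGCG. Over windows of the tested protein-coding genes the shares were 16.5%, 2.79% and 3.41%, and over all windows 8.86%, 1.40% and 1.75%. Of the letters that HES1 and its relatives are known to bind, the class C site CACGCG was in 17.6% of the windows, beside 16.4% for tested protein-coding genes and 9.27% of all windows. The N box CACNAG was in 41.9%, beside 40.8% and 42.5%, and a GC box in 52.7%, beside 60.5% and 35.7%. N boxes, which are not in capitals above, numbered 3 in the Mrps11 window, 1 in the Mrpl40 window and 0 in the Mrps6 window. All were sought on both strands, and a match of letters is a description of the sequence alone.

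Behind these 4 genes stood 6 that complete the 10 smallest unadjusted p. In all of them the 3 Rosa-Hes1 libraries were above the 3 control libraries, and choice by a small p makes such a separation likely. Mrpl38, of the central protuberance of the large subunit, had 72.0, 65.5 and 61.4 CPM in Rosa-Hes1 libraries, against 50.3, 59.3 and 51.9 CPM in control libraries (log2 fold change 0.30, adjusted p = 0.0796, edgeR). Mrpl41, a large subunit protein also known to bind BCL2, had 62.2, 60.4 and 57.1 CPM in Rosa-Hes1 libraries, against 42.9, 55.1 and 48.0 CPM in control libraries (0.30, adjusted p = 0.0962). Neither difference passed the threshold, although it was as large as that of Mrpl40. The other 4 were Mrpl34 (0.24, adjusted p = 0.0809), Mrps18a (0.22, adjusted p = 0.102), Mrpl28 (0.20, adjusted p = 0.0809) and Mrpl54 (0.20, adjusted p = 0.110), all in the large subunit. Mrpl28 had 79.2, 80.3 and 77.7 CPM in Rosa-Hes1 libraries, against 68.2, 70.6 and 67.7 CPM in control libraries. At the low end, Mrpl21 (-0.18, adjusted p = 0.139), Mrpl49 (-0.15, adjusted p = 0.242) and Mrpl23 (-0.14, adjusted p = 0.343) came next after the 2 genes that fell. In all, 15 of the 77 genes had an unadjusted p under 0.05, 12 higher and 3 lower. This held for 4357 of the 16954 tested genes and for 2521 of the 7231 protein-coding genes in the same range of CPM. No split by direction of the other genes is set beside the 12 and 3, and a tilt of the members was not tested.

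The subunits were alike in their medians. Of the 50 large subunit genes, which include Mrps18a and Mrps30 since both proteins sit in that subunit, 1 fell and 49 did not pass the test, with a median log2 fold change of -0.00. Of the 26 small subunit genes, 2 rose, 1 fell and 23 did not pass, also with a median of -0.00. Members found only in mitochondrial ribosomes had a median of 0.06 (30 genes, 1 higher and 1 lower), beside -0.01 for the counterparts of bacterial proteins (46 genes, 1 higher and 1 lower). In the large subunit, 14 of the 20 mitochondria-specific genes were above 0 and 20 of the 30 bacterial counterparts below it, with medians of 0.08 and -0.02. The difference between the 2 classes was not tested.

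The members singled out for a known separate role had log2 fold changes of -0.12 to 0.38, and none of them passed the threshold. Mrpl12, Mrpl10 and Mrpl11 form the stalk of the large subunit, at which the translation factors dock. Mrpl12 averaged 58.8 ± 4.93 CPM in Rosa-Hes1 libraries and 55.8 ± 3.30 in control libraries (SD, n = 3 each), with a log2 fold change of 0.08, while Mrpl10 was at 0.18 and Mrpl11 at -0.12. None of the 3 passed the test (adjusted p = 0.635, 0.201 and 0.396, edgeR). Mrpl58, a peptidyl-tRNA hydrolase that frees stalled ribosomes, averaged 28.2 ± 2.28 CPM in Rosa-Hes1 libraries and 28.2 ± 1.32 in control libraries. Mrpl44, which has the fold of an RNase III, was at 0.06, and Mrps12, which lies at the decoding site, at -0.03. Mrpl3, Mrps7, Mrps16 and Mrps22, each mutated in human mitochondrial disease, had log2 fold changes of -0.00, -0.10, 0.02 and -0.06, and Mrps5 and Mrpl15 of 0.00 and -0.09. Of the 3 related proteins that share the S18 fold, Mrps18a was at 0.22, Mrps18b at -0.04 and Mrps18c at -0.00, and Mrps30 was at -0.08. Values of 0.00 and -0.00 are differences that round to 0, and those of Mrpl58 and Mrps5 changed sign under other normalizations.

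Mrps36 has the name of a ribosomal protein but is known as a subunit of the 2-oxoglutarate dehydrogenase complex, and it has no place in the structure of the ribosome. It had 40.0, 33.1 and 43.2 CPM in Rosa-Hes1 libraries, against 25.6, 33.9 and 29.8 CPM in control libraries. The groups overlapped through Rosa-Hes1 replicate 2 and control replicate 2, and the log2 fold change of 0.38 ± 0.13 did not pass the threshold (SE, adjusted p = 0.110, edgeR). Without Rosa-Hes1 replicate 2 it was 0.48 and passed (adjusted p = 0.0293).

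The member that varied most did so among the control libraries. Mrps10, a small subunit protein, had 14.0, 12.9 and 12.0 CPM in Rosa-Hes1 libraries, against 24.9, 4.09 and 11.1 CPM in control libraries. Its counts were 213, 197 and 165 in Rosa-Hes1 libraries, against 337, 66 and 150 in control libraries, a 6.09-fold range among controls beside a 1.17-fold range among Rosa-Hes1 libraries. The coefficient of variation of 79.2% in control libraries compares with 26.9% for Mrps23, the next highest. With a log2 fold change of -0.03 and a 95% interval of -1.57 to 1.51, the data on Mrps10 say little about the groups, and the value was 0.79 without control replicate 1 and -0.47 without control replicate 2, with no call in either. Mrps23, also of the small subunit, had 21.8, 21.4 and 18.1 CPM in Rosa-Hes1 libraries, against 22.3, 22.8 and 13.5 CPM in control libraries, with the replicates numbered 3 the lowest in both groups. It was named after its values were seen.

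A few members were measured in part or not at all. Reads that fell on exons of more than 1 gene were left out as ambiguous, and they were 5.51% to 6.07% of all reads. Of 487 genes whose every exon base lies under exons of 1 gene on the other strand, none held a count in any library, which is the result that counting without regard to strand gives. Mrpl53, on chromosome 6 (83109040 to 83109939), had 0 counts in all libraries, and all 695 bases of its transcript lie within exons of the longer gene Gm42688 on the same strand. Its expression was thus not measurable. Mrps34 kept only 342 of its 918 bases free of Nme3 and Mapk8ip3. It had 6.27, 8.35 and 8.14 CPM in Rosa-Hes1 libraries, against 5.61, 7.12 and 5.62 CPM in control libraries, the lowest of all members, with a log2 fold change of 0.31 ± 0.17 (SE, adjusted p = 0.312, edgeR). Of the 77 genes, 32 share exon bases with another gene. The 45 that do not had 1 gene that rose (Mrps35) and 1 that fell (Mrpl40), with a median log2 fold change of -0.00. Of the 5 processed pseudogenes with such names, Mrpl48-ps had 142, 89 and 90 counts in Rosa-Hes1 libraries, against 84, 122 and 84 in control libraries, and the other 4 had at most 37 counts each over all libraries, so that Mrpl48 counts could hold reads of its copy.

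Many of these genes start head to head with another gene. Within 1000 bases, 23 of the 77 (29.9%) have a protein-coding gene that starts upstream in the opposite direction, beside 10.5% of the 13307 tested protein-coding genes. Of these 23 partners, 2 were higher (Klc4 beside Mrpl2, and Pnpla7 beside Mrpl41) and 2 lower (Mrps11 beside Mrpl46, and Ska3 beside Mrpl57) in Rosa-Hes1 cultures. Over all tested genes, 5.85% were higher and 2.41% lower. Mrps11 and Mrpl46 are partners of each other, so both are members as well, and Mrps11 is already among the members called. Whether partners differ from other genes was not tested. Klc4 had a log2 fold change of 0.83 while that of Mrpl2 was -0.00, and Ska3 of -0.55 while that of Mrpl57 was 0.03. These partners were named after their values were seen, and the calls of Klc4, Pnpla7 and Ska3 were lost without control replicate 1 or 3 or Rosa-Hes1 replicate 1 or 3, and those of Pnpla7 and Ska3 also without control replicate 2 (adjusted p of 0.0512 to 0.0838 in all). The members lay on 17 chromosomes, 11 of them on chromosome 11, and the 4 that passed the test on chromosomes 6, 7 and 16. Near the engineered loci, Mrps21 lies 0.363 Mb and Mrpl9 1.06 Mb from Ctsk, with log2 fold changes of 0.07 and 0.20 (adjusted p = 0.647 and 0.151). The member nearest to Rosa26, Mrpl51, lies 12.1 Mb away (0.17, adjusted p = 0.198), and Mrps35 lies 34.0 Mb away.

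Of 38 assembly factors of the mitochondrial ribosome that were tested, 2 rose and 1 fell, with a median log2 fold change of -0.06. That is 7.89%, near the 8.25% of all tested genes. Those that rose were Afg3l2 and Spg7, subunits of the m-AAA protease of the inner membrane, which is known to mature Mrpl32. Afg3l2 had 178, 163 and 177 CPM in Rosa-Hes1 libraries, against 132, 143 and 134 CPM in control libraries (0.34 ± 0.07 SE, adjusted p = 0.0211, edgeR), and Spg7 had 83.4, 77.3 and 81.6 CPM in Rosa-Hes1 libraries, against 60.7, 64.2 and 68.9 CPM in control libraries (0.32 ± 0.07 SE, adjusted p = 0.0327). The groups overlapped for neither gene. Without control replicate 1 or 3 or Rosa-Hes1 replicate 1 or 3, none of the 38 factors passed the threshold, with adjusted p of 0.0692 to 0.0921 for Afg3l2 (log2 fold changes of 0.32 to 0.33) and of 0.0550 to 0.126 for Spg7 (0.28 to 0.37). The Spg7 call was also lost without control replicate 2 (0.32, adjusted p = 0.0927). The gene that fell was Lyar (-0.37, adjusted p = 0.0490), better known as a nucleolar protein of cytosolic ribosome synthesis, whose call held only without Rosa-Hes1 replicate 2 among the fits with 1 library left out (otherwise -0.42 to -0.32, adjusted p of 0.0757 to 0.177), and Mrpl32 itself, named after its value was seen, was at -0.05 (adjusted p = 0.731). Of 18 tested translation factors 1 rose, or 5.56%. It was Letm1, an inner membrane protein of potassium and proton exchange that is known to bind mitochondrial ribosomes, with 194, 202 and 207 CPM in Rosa-Hes1 libraries, against 149, 162 and 145 CPM in control libraries (0.40 ± 0.07 SE, adjusted p = 0.0129). Without control replicate 1 or 3 it was 0.39 and 0.37 and missed the threshold (adjusted p = 0.0556 and 0.0539). The 18 translation factors had a median of 0.09, and the groups did not overlap for 8 of them (44.4%), all 8 higher in Rosa-Hes1 libraries. In either direction, this share was 31.2% of all tested genes and 39.5% of protein-coding genes in the CPM range of the members. It was 31.6% for assembly factors, 40.9% for synthetases, 44.0% for mitochondrial DNA expression and 54.1% for cytosolic ribosomal proteins. Whether the translation factors differ from other genes was not tested. The summed level of the 18 was 1184, 1203 and 1184 CPM in Rosa-Hes1 libraries, against 1040, 1122 and 1023 CPM in control libraries, without overlap.

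Among 25 genes of mitochondrial DNA expression and its nuclear regulators, 2 fell, and the median was -0.09. Both are regulators: Pprc1, a coactivator of the PGC-1 family, had 86.8, 113 and 88.5 CPM in Rosa-Hes1 libraries, against 145, 131 and 124 CPM in control libraries (-0.47 ± 0.11 SE, adjusted p = 0.0367, edgeR). Myc, a transcription factor of growth and ribosome synthesis, had 159, 161 and 137 CPM in Rosa-Hes1 libraries, against 206, 200 and 192 CPM in control libraries (-0.39 ± 0.08 SE, adjusted p = 0.0224). All 3 Rosa-Hes1 libraries were below all control libraries for both. With 1 library left out, both calls held without Rosa-Hes1 replicate 2 and were lost without any other, at -0.53 to -0.41 and adjusted p of 0.0704 to 0.153 for Pprc1 and at -0.42 to -0.32 and adjusted p of 0.0556 to 0.0851 for Myc. The share called, 2 of 25 or 8.0%, was near the 8.25% of all tested genes called in either direction. It was above the 2.41% called lower, and whether this list differs from other genes was not tested.

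In 5 further lists no gene passed the threshold in edgeR. The 5 other proteins of the mitochondrial ribosome, whose symbols do not begin with Mrp, had a median of 0.04, and 0 of them had an unadjusted p under 0.05, with 0 calls in DESeq2 and 0 in limma-voom. Of 22 aminoacyl-tRNA synthetase and amidotransferase genes, with a median of -0.05, 7 had an unadjusted p under 0.05, and DESeq2 called 2 and limma-voom 3. Of the 13 proteins encoded by mitochondrial DNA, the products of this ribosome, 10 reached 10 counts and mt-Atp8, mt-Nd3 and mt-Nd4l did not. Among the 10, 3 had an unadjusted p under 0.05, DESeq2 called 1 and limma-voom 0, and the median was 0.12. This median includes mt-Co2, mt-Atp6 and mt-Co3, which had at most 0.740 CPM in any library and log2 fold changes of -0.68, 0.95 and 0.60, while each of the other 7 had at least 189 CPM in every library. Alignments that were not unique were counted for no gene. Whether reads of mt-Co2, mt-Atp6 and mt-Co3 were lost in this way was not tested, so their values are not taken as their expression. The summed level of the 10, to which these 3 add little, was 6461, 6918 and 7283 CPM in Rosa-Hes1 libraries, against 6705, 6422 and 6892 CPM in control libraries, and the groups overlapped. The 2 rRNAs of mitochondrial DNA, which poly(A) selection captures poorly, had 0 genes with an unadjusted p under 0.05 and 0 calls in DESeq2 and in limma-voom. They summed to 368, 227 and 385 CPM in Rosa-Hes1 libraries, against 189, 213 and 300 CPM in control libraries, with overlap.

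The proteins of the cytosolic ribosome gave a comparison. Of their 85 genes none passed the threshold in edgeR, 10 had an unadjusted p under 0.05, DESeq2 called 2 and limma-voom 1. Their median was -0.09, and 76 of the 85 log2 fold changes were below 0, beside 40 of 77 for the mitochondrial ribosomal proteins. The summed level was 25797, 25146 and 24052 CPM in Rosa-Hes1 libraries, against 26558, 26730 and 26423 CPM in control libraries, without overlap. The median stayed between -0.11 and -0.07 under all scalings and with any 1 library left out. Whether the 2 kinds of ribosome differ from each other was not tested.

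Cell cycle genes moved with the groups. Of 34, 11 fell and 23 did not pass the test, with a median of -0.44, and all 34 were below 0. E2f1, a transcription factor of S phase genes, had 61.3, 61.6 and 60.1 CPM in Rosa-Hes1 libraries, against 80.2, 79.7 and 79.3 CPM in control libraries (-0.39 ± 0.06 SE, adjusted p = 0.0101, edgeR). Mcm3 (-0.50, adjusted p = 0.0216), Mcm6 (-0.48, adjusted p = 0.0298) and Nusap1 (-0.51, adjusted p = 0.0313) fell too. The summed level of the 34 genes was 4137, 4970 and 3360 CPM in Rosa-Hes1 libraries, against 6043, 5619 and 5349 CPM in control libraries. The summed level of the 9 osteoclast markers ran the other way, with 19109, 16828 and 19716 CPM in Rosa-Hes1 libraries, against 10662, 13660 and 12600 CPM in control libraries. The number of cell cycle calls depended on single libraries, with 28 without Rosa-Hes1 replicate 2 and 0 to 2 without any other. E2f1 passed in every one of these fits except that without Rosa-Hes1 replicate 1 (-0.39, adjusted p = 0.0521). The part of these differences in the values of the mitochondrial ribosomal protein genes was not tested.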

How the data were processed

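RNA-Seq of osteoclast cultures was analysed in 3 Rosa-Hes1 and 3 control libraries, which the labels describe as biological replicates. Libraries were prepared with a stranded poly(A) kit and run as 1 pool. For each library the authors deposited whole-number counts per Ensembl gene with no normalization. According to the submitters' processing notes and the study's methods, reads were trimmed with Sickle 1.33, aligned with HISAT2 2.1.0 to GRCm38, handled with SAMtools 1.9 and Picard, which removed duplicates, and counted with HTSeq. The study's text names a human genome, whereas the identifiers are those of mouse. HTSeq's classes of reads not assigned to a gene, 17.4% to 18.1% of each library, were left out. They include the ambiguous reads and alignments that were not unique (7.37% to 7.49%). Symbols, transcripts and positions came from GENCODE release M21, which named all but 0.322% of the identifiers.

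Genes that reached 10 counts over all libraries together were tested in edgeR 4.0.16 (R 4.3.3). The quasi-likelihood fit used TMM factors and robust estimates of dispersion, without covariates, and p-values were adjusted by Benjamini-Hochberg over all tested genes with a threshold of 0.05. The standard error is the log2 fold change divided by the square root of F, and intervals use the residual degrees of freedom of the fit. The biological coefficient of variation was 0.124. The script was tested on simulated data. Alternatives were DESeq2 1.42.0, limma 3.58.1 with voom and sample weights, 2 other normalizations, 2 other filters, a replicate block and leaving out each library. Named members were those past the threshold, those with the smallest p up to 10, the 5 largest and 5 smallest changes, the 5 highest and 5 lowest levels per length, and a list of members with separate roles. From the other lists every called gene was named where 5 or fewer were called, otherwise 4. Members and lists were chosen with earlier results of these data known, so no list was given a test of its own. Promoter windows were RefSeq's (GRCm38.p6).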

Additional observations from a re-analysis of the deposited data

How the results depend on the processing

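The counts of 2 higher and 2 lower members were 2 and 2, of the same 4 genes, with DESeq2 size factors, upper-quartile factors, filterByExpr, DESeq2 and limma-voom, and 3 and 2 with no filter on low counts, where Mrpl38 joined (adjusted p = 0.0419). With each library left out they ran between 0 and 3 higher and between 0 and 2 lower. With the replicate block they were 0 and 1. Nothing in the labels says whether replicate numbers pair the libraries, so the replicate block is given here as an alternative alone. Correlations of deviations were -0.00307, -0.163 and 0.342 between libraries of the same number, and between -0.481 and 0.462 for unlike numbers. With 3 libraries a group they cannot decide whether the libraries were paired. The median log2 fold change of the members lay between -0.02 and 0.04 in every setting. Over all tested genes, leaving out single libraries gave 244 to 1555 higher and 21 to 1091 lower genes, and the lower genes numbered 697 with no filter, 876 in DESeq2 and 917 in limma-voom.

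In the related lists, the calls with no filter, DESeq2 and limma-voom were 1, 2 and 3 among the synthetases (limma-voom median -0.08). No filter gave 4 in mitochondrial DNA expression and 1 among proteins of mitochondrial DNA, where DESeq2 also gave 1. The cell cycle genes had 24 calls in DESeq2, 23 in limma-voom and 17 with the replicate block, and the cytosolic ribosomal proteins 1 with filterByExpr, 2 in DESeq2 and 1 in limma-voom. Leaving out single libraries gave 0 to 28 calls in the cell cycle genes, 0 to 5 in assembly factors, 0 to 1 in translation factors, 0 to 4 in synthetases, 0 to 3 in mitochondrial DNA expression, and 0 to 1 in cytosolic ribosomal proteins and in proteins and rRNAs of mitochondrial DNA. Medians ran between -0.10 and -0.04 for synthetases, -0.15 and -0.05 for mitochondrial DNA expression, -0.09 and -0.01 for assembly factors, -0.07 and 0.07 for the other ribosome proteins, and 0.02 and 0.17 for proteins of mitochondrial DNA. The causes were not tested.

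Of 38 named members, 11 changed sign in at least 1 alternative, none with a call. With single libraries left out they ran between -0.06 and 0.05 for Mrpl17, -0.05 and 0.02 for Mrpl20, -0.06 and 0.04 for Mrpl3, -0.03 and 0.07 for Mrpl57, -0.06 and 0.06 for Mrpl58, -0.47 and 0.79 for Mrps10, -0.11 and 0.05 for Mrps12, -0.03 and 0.09 for Mrps16, -0.07 and 0.05 for Mrps18c, -0.15 and 0.02 for Mrps22, and -0.02 and 0.03 for Mrps5. Under other settings Mrpl3 was at 0.00 (filterByExpr and no filter), Mrpl58 and Mrps5 at -0.00 (both normalizations and DESeq2) and at -0.04 and -0.00 (limma-voom), Mrps10 at 0.60 (limma-voom) and 0.22 (replicate block) and Mrps16 at -0.01 (limma-voom).

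With 3 libraries a group, p-values measure the spread between these cultures alone. Members had a median standard error of 0.08 on the log2 scale, and the smallest difference called was -0.28 (Mrpl40), while larger ones of 0.30 (Mrpl38 and Mrpl41) were not called.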
